A study of Homo sapiens with 4 samples.

Results

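The SLC13 genes encode sodium-coupled transporters of the cell membrane that carry dicarboxylates, citrate or sulfate into cells. H3K4bhb peaks were assigned to the 5 genes of the family when the peak summit lay inside the RefSeq GRCh38 span of a gene or within 20 kb of it. By this rule 3 of 17761 deposited peaks belonged to the family, 1 of 6251 in the list from cells given hydrogen peroxide (H2O2) alone and 2 of 11510 in the list from cells given sodium beta-hydroxybutyrate (BHBNa) before H2O2. All 3 lay inside SLC13A3. The family was chosen by its peak positions in these lists, and SLC13A3 by its overlapping peaks under both treatments, so the presence of that pair is a description and not a finding.

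The cells were HK-2, an established human line of kidney tubule epithelium, grown in serum-containing medium. Both groups received H2O2, an oxidant, and 1 of them was given BHBNa, the sodium salt of a ketone body, beforehand. Cells without H2O2 were not analysed here, and the labels give no dose or time. Each treatment had 1 library immunoprecipitated (IP) for H3K4bhb, histone H3 beta-hydroxybutyrylated at lysine 4, and 1 control library that the titles call IgG and the library names call input. With 1 IP library per treatment there was no replicate, and no difference between treatments was tested. Peaks do not measure expression, so whether these cells express any SLC13 gene or other proximal tubule gene was not checked.

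The family divides by substrate. SLC13A2 and SLC13A3 carry succinate and other dicarboxylates in the proximal tubule, SLC13A2 at the luminal membrane, where it also reclaims citrate, and SLC13A3 at the basolateral membrane, where it supplies the dicarboxylates that organic anion transporters exchange for their substrates. SLC13A5 is a citrate transporter best known from liver and brain. SLC13A1 reabsorbs sulfate in the proximal tubule, and SLC13A4 carries sulfate in tissues such as placenta and brain. Histone beta-hydroxybutyrylation is a lysine modification that rises with the supply of beta-hydroxybutyrate, and other modifications of lysine 4 of histone H3, such as its trimethylation, mark active gene starts.

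Because lysine 4 of histone H3 is best known at gene starts, the promoter windows of the family are shown first. RefSeq (GRCh38.p14) gave windows of 250 bases before to 50 after the gene start for 4 of the 5 genes, with SLC13A3 not among them. They are printed on the strand of the gene, 5′ to 3′, with CpG dinucleotides, the letters CG, in capitals. The SLC13A1 window is chr7:123199920-123200219 (minus strand), that of SLC13A2 is chr17:28473394-28473693 (plus strand), that of SLC13A4 is chr7:135728137-135728436 (minus strand) and that of SLC13A5 is chr17:6713320-6713619 (minus strand).
SLC13A1: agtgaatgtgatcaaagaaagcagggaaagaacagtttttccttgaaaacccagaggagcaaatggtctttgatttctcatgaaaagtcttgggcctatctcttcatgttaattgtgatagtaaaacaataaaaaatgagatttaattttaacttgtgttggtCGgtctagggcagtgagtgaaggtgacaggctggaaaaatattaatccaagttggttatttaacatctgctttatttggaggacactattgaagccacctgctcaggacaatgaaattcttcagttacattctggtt
SLC13A2: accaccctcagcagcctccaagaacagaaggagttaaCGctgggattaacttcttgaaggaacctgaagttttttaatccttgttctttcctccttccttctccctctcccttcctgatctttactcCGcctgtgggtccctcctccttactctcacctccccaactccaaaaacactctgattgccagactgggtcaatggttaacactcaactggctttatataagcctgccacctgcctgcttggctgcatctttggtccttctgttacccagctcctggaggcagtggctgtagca
SLC13A4: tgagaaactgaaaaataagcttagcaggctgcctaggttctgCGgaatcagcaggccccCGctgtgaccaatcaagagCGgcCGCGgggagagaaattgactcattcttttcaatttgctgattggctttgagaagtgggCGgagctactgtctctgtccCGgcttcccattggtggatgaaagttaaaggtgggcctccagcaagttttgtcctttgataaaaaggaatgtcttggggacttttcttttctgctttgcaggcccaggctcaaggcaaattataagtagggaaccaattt
SLC13A5: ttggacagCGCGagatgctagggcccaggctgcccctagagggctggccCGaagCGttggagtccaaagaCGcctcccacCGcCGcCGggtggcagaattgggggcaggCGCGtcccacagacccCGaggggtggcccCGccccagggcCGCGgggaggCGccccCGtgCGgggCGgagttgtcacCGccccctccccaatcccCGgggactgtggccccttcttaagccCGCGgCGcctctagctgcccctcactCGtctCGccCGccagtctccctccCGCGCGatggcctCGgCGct

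CpG content set the citrate transporter apart in this group. The SLC13A5 window held 31 CpG dinucleotides, the SLC13A4 window 7, the SLC13A2 window 2 and the SLC13A1 window 1. Over 15813 promoter windows of protein-coding genes the median was 22 (interquartile range 8 to 32), so that the SLC13A1, SLC13A2 and SLC13A4 windows fell below the lower quartile and the SLC13A5 window just below the upper one. None of the 4 windows held a summit in either list. Among all windows 0 of 15813 held a summit in the H2O2-alone list (0%) and 2 of 15813 with H2O2 + BHBNa (0.0126%), where the average density of each list over the windows' summed length of 4.74 Mb gives 9.76 and 17.9 summits. The empty SLC13 windows were thus like nearly all others. The nearest H2O2 summit lay 31.9 kb from the start of SLC13A1, 37.3 kb from that of SLC13A5, 469 kb from that of SLC13A4 and 664 kb from that of SLC13A2. In the H2O2 + BHBNa list these distances were 398 kb for SLC13A1, 91.3 kb for SLC13A5, 742 kb for SLC13A4 and 284 kb for SLC13A2.

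With the 20 kb rule, 1 of 5 members had a peak in the H2O2-alone list, where 11.3% of 19974 protein-coding genes had one. The count was also 1 of 5 in the H2O2 + BHBNa list, where 24.5% of genes had one. SLC13A3 was that member both times, and 5.83% of all genes had a peak in both lists. For peaks with a q of at most 0.05 (q is the authors' peak p-value adjusted for the number of places tested), SLC13A3 again had 1 in each list, against 1.03% of genes for H2O2 alone and 5.13% for H2O2 + BHBNa. Since the overlap chose SLC13A3, nothing is read from these counts. SLC13A3 has the longest span of the family, 127 kb, against 86.4 kb for SLC13A1, 47.0 kb for SLC13A4, 28.7 kb for SLC13A5 and 24.1 kb for SLC13A2. The average peak density over its span and flanks gives 0.343 peaks in the H2O2-alone list and 0.631 in the H2O2 + BHBNa list, and at most 0.260 and 0.478 for any other member. At that density each of the 5 genes would hold fewer than 1 peak, so 0 peaks in a member says little about it.

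**Figure D1:**
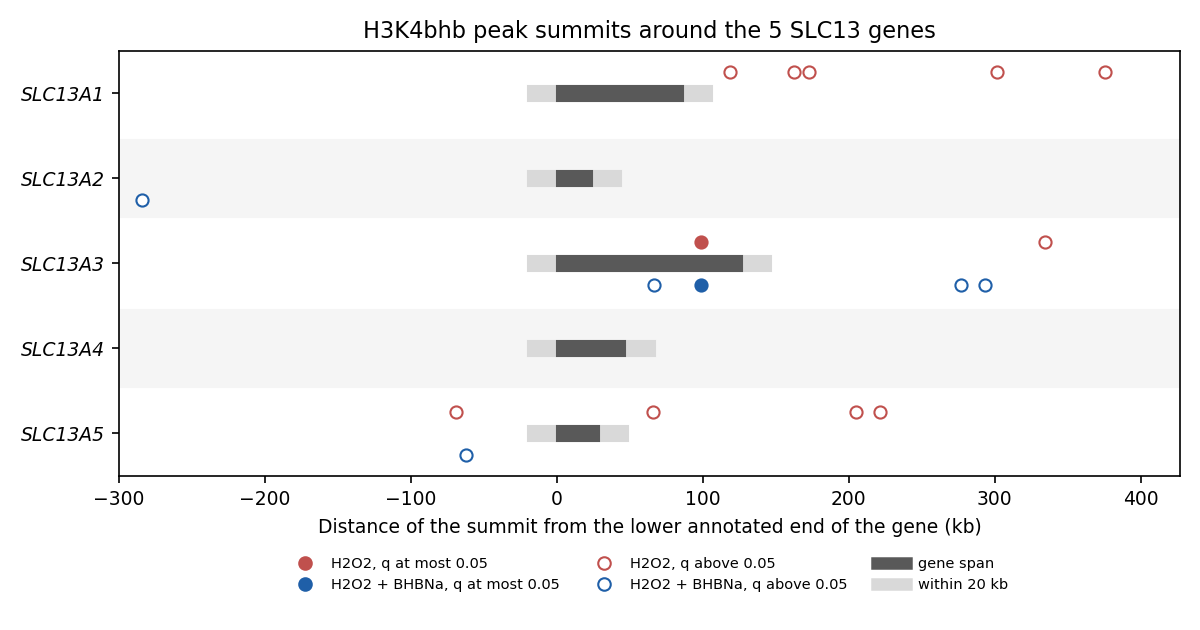
Summits of H3K4bhb peaks around the 5 SLC13 genes, by distance in kb from the end of the gene with the lower coordinate. Dark bars are gene spans, pale bars the 20 kb on either side, and filled points have a q of at most 0.05. The filled points inside SLC13A3, 98.4 and 98.5 kb from its lower end, lie at the same place in both lists, and the other 4 genes have no point on their bars.

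SLC13A3 (RefSeq gene ID 64849, chr20:46557828-46684485, GRCh38) held the overlapping pair. In the H2O2-alone list the peak spanned chr20:46655982-46656642, 661 bp, with its summit at 46656182. The H2O2 + BHBNa peak spanned chr20:46656093-46656579, 487 bp, with its summit at 46656306. The second peak lay wholly within the first, covering 73.7% of it, and the summits were 124 bp apart. Both summits were inside the gene body, 98.4 and 98.5 kb from the lower annotated end and 28.3 and 28.2 kb from the higher one. No other RefSeq gene of any type, noncoding RNAs included, covered them. Whether the place is an exon or an intron was not determined, since the table used here gives gene spans only.

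The fold enrichment, the summit height over the local control with 1 added to each, was 5.22 in the H2O2-alone list (q of 0.000157) and 7.01 in the H2O2 + BHBNa list (q of 5.89e-06). These folds and q values are the authors' own for each peak and have no replicate error. By q the H2O2 peak ranked 33 of 6232 on chromosomes 1 to 22 and X, and the H2O2 + BHBNa peak 54 of 11464. By fold they ranked 126 and 34. Among the 113 H2O2 peaks and 273 H2O2 + BHBNa peaks of chromosome 20 each ranked 2 by q. The H2O2 peak was wide for its list, where 0.754% of peaks had at least its width and the median was 297 bp. In the H2O2 + BHBNa list 4.97% of peaks had at least the width of the SLC13A3 peak, and the median was 324 bp.

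**Figure D2:**
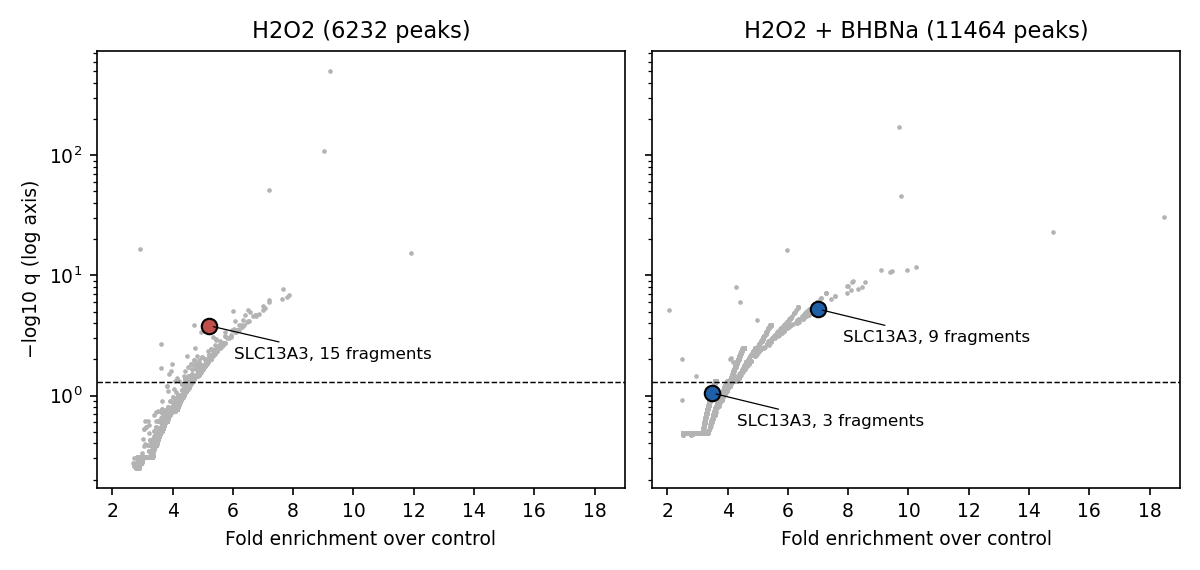
Authors' fold enrichment (x axis) against −log10 q (y axis, log scale) for every peak on chromosomes 1 to 22 and X, with the SLC13A3 peaks as large points labelled with their IP fragments. The dashed line is a q of 0.05. The SLC13A3 pair stands in the upper part of each list, at folds of 5.22 and 7.01, and the other H2O2 + BHBNa peak, of 3 fragments, lies below the line.

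The fragments behind each fold were recovered from the deposited fold and p. The H2O2 summit rested on 15 IP fragments (95% exact Poisson interval 8.40 to 24.7) over a control background of 2.06. The H2O2 + BHBNa summit rested on 9 fragments (4.12 to 17.1) over a background of 0.426. These intervals cover counting error only. The median peak had 4 fragments in the H2O2-alone list and 2 in the H2O2 + BHBNa list, and 0.209% and 0.279% of peaks had at least as many as the SLC13A3 summits. The H2O2 library had the higher genome-wide background, 0.274 against 0.102 fragments, a ratio of 2.68 that scales with sequencing depth. Divided by these levels, the IP fragments at SLC13A3 came to 54.7 times the genome-wide level in H2O2 (30.6 to 90.2) and 88.1 times in H2O2 + BHBNa (40.3 to 167). The intervals, which hold no replicate error, overlap from 40.3 to 90.2, and the difference was not tested.

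The recovered background was raised for the pair as well. It is the control level that each peak was scored against, not a count of control fragments at the summit. This background was 7.53 times the genome-wide level in H2O2 and 4.17 times in H2O2 + BHBNa, where the median peak had 1.73 and 1.48 times. In the H2O2-alone list 0.594% of peaks had a background at least as high, and in the H2O2 + BHBNa list 2.92%. Inside the same gene, the other H2O2 + BHBNa peak had a background of 1.46 times the genome-wide level, close to the list's median. The part of the raised background in the SLC13A3 peaks was not tested.

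**Figure D3:**
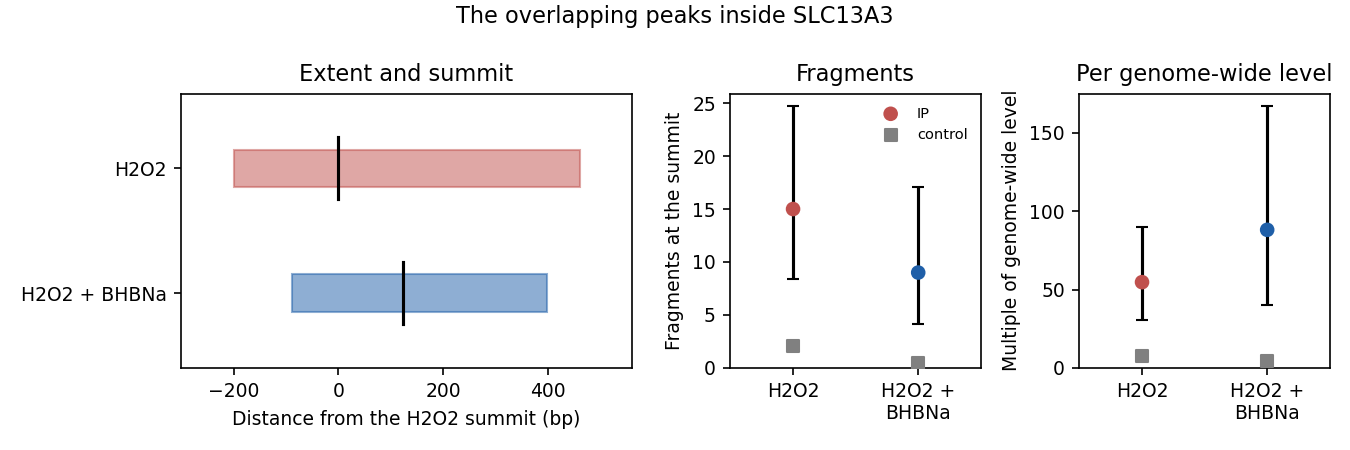
The overlapping SLC13A3 peaks. Left, the extent of each peak in bp from the H2O2 summit, with a black line at each summit. Middle, IP fragments at the summit (circles, with 95% exact Poisson intervals) and the recovered control background (squares). Right, the same as multiples of each list's genome-wide level, 54.7 and 88.1 for the IP libraries, with overlapping intervals, and 7.53 and 4.17 for the background.

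The other peak of the family was in the H2O2 + BHBNa list only, at chr20:46624020-46624477, 458 bp wide. Its summit at 46624331 lay inside SLC13A3, 66.5 kb from the lower end of the gene. It rested on 3 IP fragments (0.619 to 8.77) over a background of 0.149, at a fold of 3.48 (q of 0.0897). Peaks with at least its fold made up 25.4% of the list, and 48.0% had at least its fragments, so it was ordinary for the list. The H2O2-alone list, whose every peak had at least 3 fragments, held none there. Treatment and depth cannot be told apart as sources of that difference.

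SLC13A1, the renal sulfate transporter (gene ID 6561, chr7:123113531-123199971), had no summit within 20 kb. Its nearest peak, 31.9 kb beyond the higher end in the H2O2-alone list, rested on 4 fragments (fold 3.72, q of 0.245). The nearest H2O2 + BHBNa peak was 398 kb away. Within 1 Mb of the gene the H2O2-alone list held 13 summits, or 6.23 per Mb against an average of 2.06, and the H2O2 + BHBNa list 9, or 4.31 per Mb against 3.78. Of the 5 members SLC13A1 was the only one above the H2O2-alone average.

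SLC13A5, the citrate transporter (gene ID 284111, chr17:6684719-6713369), had its nearest H2O2 summit 37.3 kb beyond the higher end, a summit of 3 fragments (fold 2.85, q of 0.532). Its nearest H2O2 + BHBNa summit was 62.6 kb below the lower end, a summit of 3 fragments (fold 3.55, q of 0.0602). The H2O2-alone list also held a summit on that side, 69.1 kb from the gene. Within 1 Mb there were 4 and 3 summits, 1.97 and 1.48 per Mb. These H2O2 peaks of SLC13A1 and SLC13A5, at 31.9 and 37.3 kb, are the ones just outside the 20 kb limit. No summit lay between the gene spans and that limit for any member, so all 3 peaks were well inside it.

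SLC13A2, the luminal dicarboxylate transporter (gene ID 9058, chr17:28473644-28497781), had no summit within 20 kb in either list. Its nearest H2O2 summit was 640 kb away and its nearest H2O2 + BHBNa summit 284 kb, the latter with 2 fragments and a fold of 2.72. Within 1 Mb it had 1 H2O2 summit and 8 H2O2 + BHBNa summits. These were 0.494 per Mb, below the H2O2 average of 2.06, and 3.95 per Mb, close to the H2O2 + BHBNa average of 3.78. SLC13A4, the second sulfate transporter (gene ID 26266, chr7:135681231-135728186), had its nearest summits at 469 kb in the H2O2-alone list and 742 kb in the H2O2 + BHBNa list. Within 1 Mb it had 3 and 2 summits, 1.47 and 0.977 per Mb. Within 1 Mb of SLC13A3 there were 3 and 8, or 1.41 and 3.76 per Mb, below the H2O2 average of 2.06 and close to the H2O2 + BHBNa average of 3.78, so the pair did not lie in a dense stretch.

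The nearest protein-coding neighbours of the family were counted by the same rule. TP53RK, which encodes a p53-regulating kinase, overlaps the higher end of SLC13A3 by 121 bp, and OCSTAMP lies 7.17 kb from the lower end. Neither had a summit inside or within 20 kb in either list, so the SLC13A3 peaks fell to neither of these neighbours. Of the 10 nearest neighbours on either side of the 5 genes, IQUB beside SLC13A1 and XAF1 beside SLC13A5 had 1 summit each, both in the H2O2-alone list. That makes 2 of 10 with H2O2 alone, against 11.3% of all genes, and 0 of 10 with H2O2 + BHBNa, against 24.5%. The XAF1 summit is the same peak of 3 fragments given above as 37.3 kb beyond SLC13A5 (q of 0.532). SLC46A1, FOXN1, STMP1, FAM180A, TAS2R16 and C17orf100 had 0 in both lists.

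SLC13A3 was set among all overlapping peaks of the lists. On chromosomes 1 to 22 and X there were 74 overlapping pairs, made from 1.19% of the H2O2-alone peaks and 0.637% of the others. In 22 of them both summits lay inside 1 protein-coding gene, a pattern held by 0.110% of genes. Within these 22 the SLC13A3 pair had the 3rd highest H2O2 fold and the 2nd highest H2O2 + BHBNa fold, against medians of 3.37 and 3.66. Its summit distance of 124 bp was near the median of 125 bp. The control background over the genome-wide level had medians of 2.09 and 2.48 in these pairs. SLC13A3 had the highest such value of the 22 in the H2O2-alone list, and 4 of the 22, SLC13A3 included, were at or above its value in the H2O2 + BHBNa list.

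The 5 genes most like SLC13A3, by the distance of their log2 folds in both lists from those of its pair, were SYTL5, CNTNAP2, RAB38, MACROD2 and DIP2C. Among all 74 pairs, the nearest by this distance lay outside protein-coding genes, at 0.345, 0.388, 0.425 and 0.429. SYTL5, a synaptotagmin-like protein of vesicle traffic, had folds of 4.49 in H2O2 and 9.47 in H2O2 + BHBNa, at a distance of 0.485. CNTNAP2, a neuronal cell adhesion protein, had 6.58 and 4.55, at a distance of 0.709. RAB38, a small GTPase, had 3.18 and 6.29, at a distance of 0.733, MACROD2 had 3.65 and 4.77, and DIP2C 2.95 and 6.71. Fragments at these summits ran from 4 to 12 in the H2O2-alone list and from 5 to 10 in the H2O2 + BHBNa list, so SLC13A3 had the most in H2O2, 15, and was within the range in H2O2 + BHBNa, 9. Among these 5 genes both peaks of CNTNAP2, and of no other, reached a q of at most 0.05.

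**Figure D4:**
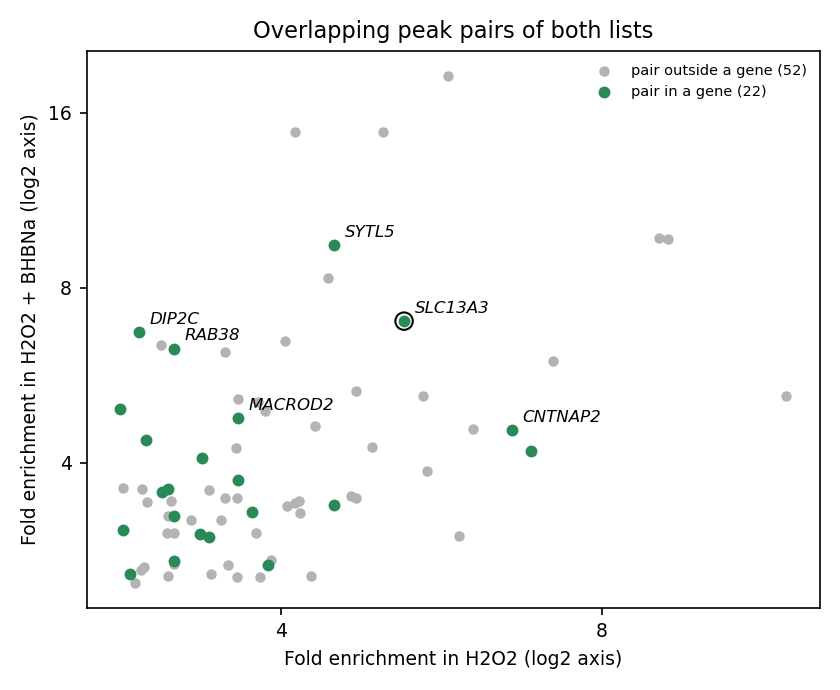
Fold enrichment in H2O2 (x axis) and in H2O2 + BHBNa (y axis), both on log2 axes, for the 74 overlapping pairs of peaks. Green points are the 22 pairs with both summits in 1 protein-coding gene, and names mark SLC13A3 (circled) and the 5 genes nearest to it. SLC13A3 stands at 5.22 and 7.01, away from the cluster of gene pairs with folds near 3 in each list.

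Related genes of transport and metabolism were counted by the same 20 kb rule, in 4 lists that hold 40 genes. Of these, 3 had a peak with H2O2 alone, 11 with H2O2 + BHBNa and 2 under both, where all genes gave 11.3%, 24.5% and 5.83%. The 4 renal organic anion transporters, among them SLC22A6 and SLC22A8, which exchange the dicarboxylates that SLC13A3 brings in, had 0 peaks in both lists. Average density over their spans and flanks gives 0.449 and 0.825 peaks, so the 0 says little about them. Mitochondrial carriers of di- and tricarboxylates had 1 of 8 in H2O2 and 2 of 8 in H2O2 + BHBNa. SLC25A21, the oxodicarboxylate carrier, was in both, with 2 and 3 peaks inside its 495 kb span, none of which overlapped and whose highest folds were 3.88 and 3.03. Enzymes and receptors of citrate, succinate and N-acetylaspartate had 1 of 16 with a peak in the H2O2-alone list, SDHD, a succinate dehydrogenase subunit, whose peak lay 11.4 kb outside the gene with a fold of 3.96 from 5 fragments.

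Of the 12 genes of sulfate transport and activation, 1 had a peak with H2O2 alone and 8 with H2O2 + BHBNa. All protein-coding genes gave 11.3% and 24.5% by the same rule. The H2O2-alone list held 1 peak at these 12 genes and the H2O2 + BHBNa list 11, where average density gives 2.31 and 4.25. The H2O2 + BHBNa list was the longer, with 11464 peaks against 6232, and the difference between the lists was not tested. These 12 genes were chosen with earlier results of these data known, so their counts are a description and were not tested against the background. SLC26A3, an intestinal anion exchanger, had peaks under both treatments at different places, with folds of 3.74 in H2O2 and up to 2.69 in H2O2 + BHBNa. The H2O2 peak lay 18.2 kb outside the gene (q of 0.228). Its H2O2 + BHBNa peaks lay inside, on 2 fragments each (q of 0.326). The highest H2O2 + BHBNa fold was 4.75, in SLC26A7, an anion exchanger of kidney and thyroid, from 5 fragments (q of 0.00750). The other 6 with an H2O2 + BHBNa peak were SLC26A2, a sulfate transporter of cartilage, SLC26A8, SLC26A9, the sulfate-activating synthases PAPSS1 and PAPSS2, and SLC35B2, the Golgi carrier of activated sulfate. PAPSS1 had 3 peaks inside its 107 kb span, the highest at a fold of 3.57 from 3 fragments. With at least 3 fragments required, as in every H2O2 peak, 5 of 12 genes kept a peak in the H2O2 + BHBNa list, against 12.8% of all genes, and with a q of at most 0.05 there were 4 of 12, against 5.13%. The summits of 3 of these 4, in SLC26A2, SLC26A9 and near SLC35B2, rested on 3 fragments each.

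Proximal tubule markers, 12 genes in all, had peaks in 2 in the H2O2-alone list, LRP2 and CUBN, and in 3 in the H2O2 + BHBNa list, those and PAX8. Over all genes the shares were 11.3% and 24.5%, and the markers held 3 and 5 peaks where average density gives 2.70 and 4.96, so their counts were near the background. LRP2 and CUBN encode the endocytic receptors megalin and cubilin and span 235 and 306 kb. None of their peaks overlapped between the lists. The highest fold was 4.38 in CUBN in the H2O2 + BHBNa list, from 4 fragments (q of 0.00824), against 7.01 in SLC13A3.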

How the data were processed

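H3K4bhb ChIP-seq peaks of HK-2 cells were analysed in 4 libraries, an IP and a control library for each of 2 treatments. The build was GRCh38 and the software named fastp 0.20.1, Bowtie2 2.4.2 and MACS2 2.2.7.1, per the submitters' processing notes, with settings not given in the sources used here. Per peak, the authors deposited a fold enrichment ratio, the −log10 of a p-value and of a q-value, and a score that equals 10 times the −log10 p without its decimals in 100% of rows. Each treatment's BED file (under the IP sample) and narrowPeak file (under the control sample) held the same peaks with starts 1 bp apart, and were used once.

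IP fragments and background were recovered from fold, (pileup + 1)/(background + 1), and a Poisson p, with −log10 p matched to 0.001, or in proportion for high values, in 100% of peaks. Chromosomes 1 to 22 and X held 6232 and 11464 peaks. Depth was known only through the genome-wide background (0.274 and 0.102 fragments), the lowest recovered background among these peaks. Average density used 3030 Mb, the summed chromosome spans to the last RefSeq gene. Genes and promoters came from RefSeq GRCh38.p14, with symbols matched for all 5 members and all 40 related genes.

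Named genes were the 5 members, their nearest protein-coding neighbours, related genes with a peak in both lists or the highest fold, and the 5 genes most like SLC13A3. Sulfate genes other than SLC26A3, and the proximal tubule markers with peaks, were named after their values were seen. Members and lists were chosen with earlier results of these data known. Alternatives varied the distance, the q limit, the fragment minimum and the overlap. Scripts (Python 3.11.15, numpy 2.4.6, pandas 2.3.3, scipy 1.17.1, matplotlib 3.10.9) were tested on simulated data.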

Additional observations from a re-analysis of the deposited data

How the results depend on the processing

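No paired analysis was possible because each treatment had 1 IP library, which also leaves no replicate to omit. Counting only summits inside the gene, peaks of at least 3 fragments, or any base of a peak within 20 kb left the family counts as they were. Within 50 kb the H2O2 list held 3 family peaks in 3 members, through the peaks near SLC13A1 and SLC13A5, and the H2O2 + BHBNa count stayed at 2. At a q of at most 0.05 the H2O2 + BHBNa list held 1 family peak. The SLC13A3 pair passed an overlap of 50% of each peak and was lost (0 pairs) when summits had to lie within 100 bp. Over both lists 42 pairs passed the 50% overlap, 29 the summit limit and 15 a q of at most 0.05 in both. The share of genes with a peak became 1.03% and 5.13% at that q, and for H2O2 + BHBNa 15.1% inside the span and 36.8% within 50 kb. For the related lists, alternatives chosen after seeing the data gave 0 (inside the span) and 0 (q) sulfate genes in H2O2, and 4 (q) and 5 (at least 3 fragments) in H2O2 + BHBNa. All 40 related genes gave 1 (inside the span) and 0 (q) in H2O2 and 4 (q) in H2O2 + BHBNa. The median peak rests on 4 fragments in the H2O2-alone list and 2 in the H2O2 + BHBNa list, which limits the precision of single peaks, and the SLC13A3 peak of 9 fragments has an interval of 4.12 to 17.1.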
